A study of Mus musculus with 8 samples.

Results

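The genes described here serve regulated secretion, the release of stored cargo from granules or vesicles on a signal, and the presynaptic release site. They are 9 genes out of 41591 in the count tables, found by gene ID: the granule proteins Scg2 and Scg5, the Rab GTPases Rab27a, Rab27b and Rab3a, the Rab27 effector Sytl4, the SNARE gene Snap23, and the active-zone scaffolds Bsn and Pclo. The members were selected on their counts in these same 8 libraries: Bsn and Rab27a were higher and Scg2 was lower in the knockout ovaries. Their differences are therefore given as a description, with no p-value. RNA was sequenced from whole ovaries of 8 female C57BL/6 mice of about 3 weeks. The 4 DKO mice carried a conditional double knockout of Insr and Igf1r, the receptor genes for insulin and insulin-like growth factor 1. The 4 Control mice were littermates labelled wild-type and positive for Pgr-Cre, a Cre recombinase under control of the progesterone receptor gene. The labels do not state which Cre the DKO mice carried, and a Cre driven by Pgr would act in Pgr-expressing cells, not in every cell of the ovary. All 8 mice received 4 IU of equine chorionic gonadotropin (eCG), which drives follicle growth. After 48 h they received 5 IU of human chorionic gonadotropin (hCG), which acts through the luteinizing hormone receptor, and ovaries were taken 12 h after hCG.

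In regulated secretion, cargo is condensed with granins such as Scg2, the granule is tethered to the plasma membrane by a Rab GTPase and its effector, and SNARE proteins pull the membranes together. Neurons add large scaffolds, Bsn and Pclo, that hold vesicles at the active zone. In the ovary, granulosa, cumulus and luteal cells release peptides and cytokines after the ovulatory signal, and oocytes release cortical granules at fertilization. In RNA of a whole ovary, fewer cells of a type and less RNA per cell cannot be told apart.

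The libraries held 33145056 to 39257648 counts in genes, and 16870 genes passed the filter on low counts. Of these, 212 (1.26%) passed edgeR's quasi-likelihood test, with a threshold of 0.05 on the adjusted p. In DKO, 128 of them (0.759%) were higher and 84 (0.498%) were lower. Leaving out 1 library gave 2 calls (without Control 2) to 506 (without Control 3). Insr averaged 126 ± 16.8 CPM (counts scaled to library size, here with TMM factors) in DKO and 155 ± 10.2 CPM in Control (SD, n = 4 each), a log2 fold change of -0.30 with an adjusted p of 0.226. Igf1r averaged 213 ± 22.4 CPM in DKO and 236 ± 28.4 CPM in Control, with an adjusted p of 0.639, so neither targeted gene passed the test in whole-ovary RNA. Pgr averaged 1.61 ± 0.535 CPM in DKO and 4.85 ± 1.75 CPM in Control, without overlap and with an adjusted p of 0.0665. The first principal component (38.3% of the variance) set DKO 1, DKO 2 and Control 1, whose sample titles carry the lowest numbers, apart from DKO 3, DKO 4 and Control 2 to 4. Differences are therefore also given within these 5 higher-numbered ovaries, 2 DKO and 3 Control. There the log2 fold change was -0.12 for Insr (adjusted p = 0.851), 0.01 for Igf1r (0.995) and -1.61 for Pgr (0.169). With a block for the title numbers over all 8 ovaries, Pgr passed (adjusted p = 0.0434) and Insr and Igf1r did not (0.204 and 0.610). Summed CPM of 9 oocyte markers ran from 128 to 438 in DKO and from 122 to 446 in Control, lowest in DKO 1, DKO 2 and Control 1, and 0 of 8 tested markers passed the test.

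Of the 9 genes, 8 passed the filter, and 3 of these 8 passed the test, against 1.26% of all genes tested; the choice of the genes used this contrast, and nothing is read from the count. Bsn and Rab27a were higher and Scg2 was lower in DKO. The count fell to 0 without DKO 3, Control 2 or Control 4, and to 1, Bsn, without DKO 1 or DKO 4. These 3 genes also had no overlap between the groups, which held for 1556 genes (9.22%) of all tested, with DKO above in 5.7% and below in 3.52% of genes. The median log2 fold change of the 8 genes was -0.02, and that of all genes tested was also -0.02.

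**Figure D1:**
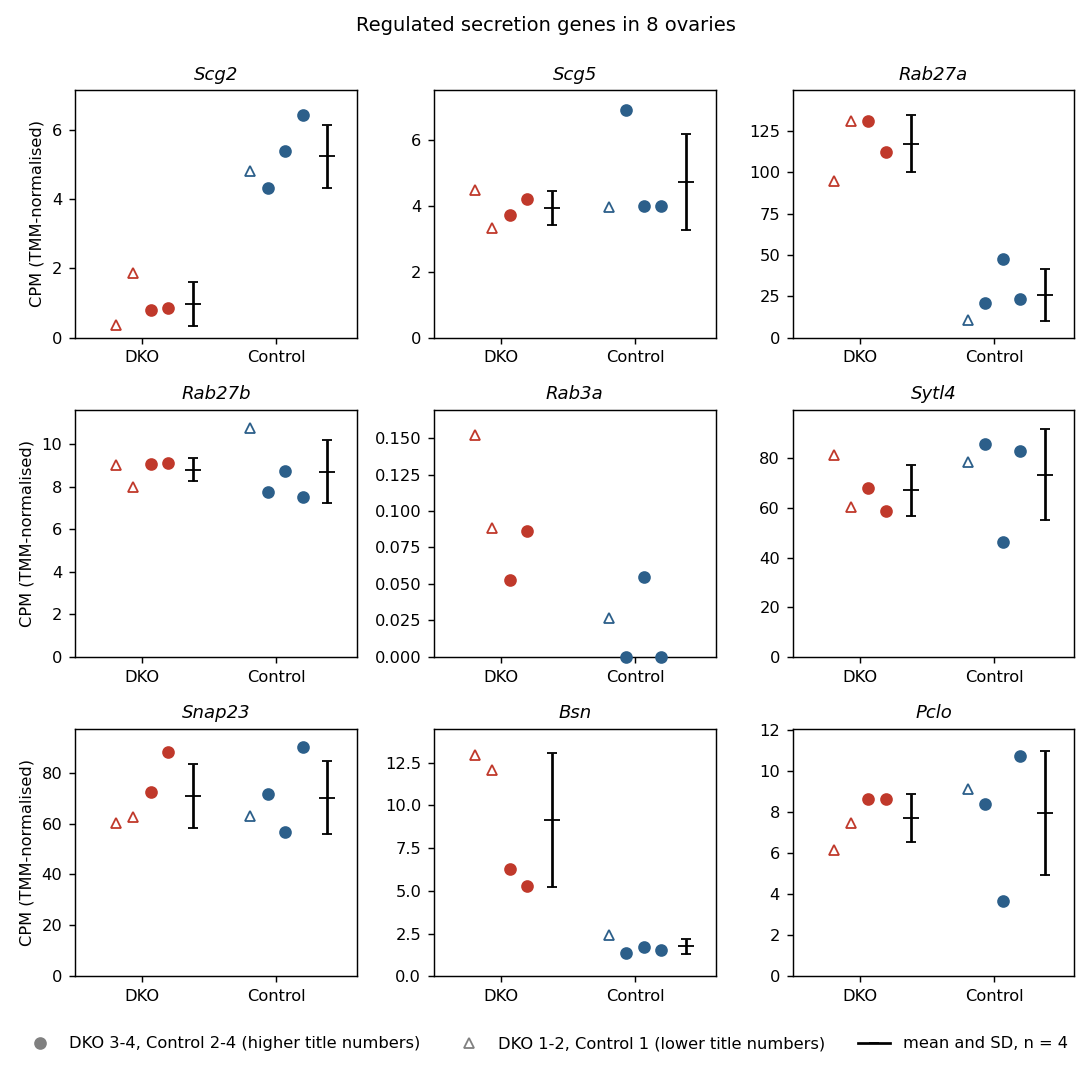
CPM (normalised with TMM factors) of the 9 genes in each ovary, DKO left of Control. Filled circles are the higher-numbered ovaries, open triangles DKO 1, DKO 2 and Control 1, and bars the mean and SD of 4 ovaries; Rab3a, with at most 6 counts in a library, has no bar. Scg2 lies wholly below Control in DKO, Rab27a and Bsn lie wholly above it, and the groups of the other 6 genes overlap.

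Scg2 encodes secretogranin II, a granule matrix protein that is also cut into the peptide secretoneurin. It lies on chromosome 1 (79434669 to 79440090, minus strand, 2 exon blocks, GRCm38.p5, gene ID 20254). Its promoter is shown because it holds the only full cyclic AMP response element (CRE) found among the 10 promoters that RefSeq gave for 8 of the 9 genes, and the hCG receptor signals through cyclic AMP. The letters in capitals are that element, TGACGTCA, which reads the same on both strands.
Scg2 promoter, chr1:79440087-79440276, minus strand: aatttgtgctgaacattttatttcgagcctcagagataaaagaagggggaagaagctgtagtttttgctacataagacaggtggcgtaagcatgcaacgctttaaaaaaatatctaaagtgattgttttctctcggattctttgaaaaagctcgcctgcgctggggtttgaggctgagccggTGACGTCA
The sequence is from RefSeq (GRCm38.p6), runs 5′ to 3′ and leaves 60 bases between its end and the annotated start site, with the first base of the element 68 bases before that site. The exon in the count tables begins 64 bases before that site, so the last 4 letters of the element lie inside it. A full CRE was found in 588 of 32851 RefSeq promoters (1.79%) of 300 bases each. Such a match is a description of letters, not a shown binding site.

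Scg2 was at 0.355, 1.85, 0.791 and 0.860 CPM in DKO 1 to 4, against 4.83, 4.32, 5.39 and 6.43 CPM in Control 1 to 4. Every DKO ovary was below every Control ovary, with DKO 2 the highest of its group. In counts these were 14, 63, 30 and 30 in DKO and 180, 153, 196 and 211 in Control. The means were 0.965 ± 0.633 CPM in DKO and 5.24 ± 0.905 CPM in Control (SD, n = 4 each), 5.43-fold lower in DKO. The log2 fold change was -2.44 ± 0.44 (SE), and -2.68 ± 0.31 within the higher-numbered ovaries. Relative to its mean, Scg2 varied more among DKO ovaries (coefficient of variation 65.6%) than among Control ovaries (17.3%).

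Scg5, a chaperone of the prohormone convertase encoded by Pcsk2, lies on chromosome 2 (113776313 to 113829091, minus strand). Its CPM were 4.49, 3.32, 3.72 and 4.22 in DKO, against 3.97, 6.89, 3.98 and 3.99 in Control. The groups overlapped, and 3 of the 4 Control ovaries lay within the range of the DKO ovaries. The log2 fold change was -0.26 ± 0.25. Per length, Scg2 was at 0.039 to 0.275 times the level of Scg5 in DKO and at 0.310 to 0.795 times in Control, in TPM, which scale counts by gene length and library size. This ratio did not overlap between the groups. It contains the difference in Scg2, for which that gene was chosen, and is no separate result.

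Rab27a encodes a GTPase that docks secretory granules and lysosome-related organelles, and melanosomes in pigment cells. It lies on chromosome 9 (73044810 to 73097623, plus strand, 9 exon blocks, gene ID 11891). RefSeq lists 2 promoters for it, shown because the gene had the highest level of the set in DKO and because the count table cannot say which start was used. Capitals mark the short CRE, TGACG, present in the second and not in the first.
Rab27a promoter 1, chr9:73044560-73044809, plus strand: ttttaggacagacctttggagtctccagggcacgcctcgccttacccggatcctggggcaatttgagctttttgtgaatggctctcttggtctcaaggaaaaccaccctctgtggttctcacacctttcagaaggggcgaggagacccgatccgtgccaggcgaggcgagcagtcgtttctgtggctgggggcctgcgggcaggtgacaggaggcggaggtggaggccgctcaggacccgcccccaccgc
Rab27a promoter 2, chr9:73063898-73064147, plus strand: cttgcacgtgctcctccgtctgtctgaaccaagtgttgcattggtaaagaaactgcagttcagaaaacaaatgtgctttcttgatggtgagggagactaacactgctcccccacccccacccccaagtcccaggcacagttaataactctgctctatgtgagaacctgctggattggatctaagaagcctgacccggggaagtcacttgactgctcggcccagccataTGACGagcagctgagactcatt
The short CRE begins 22 bases before the second start site. On either strand it occurs in 20.8% of the 32851 promoters, so its presence is common. The promoter of Scg5, whose groups overlapped, held 3 matches, and the first promoter of Rab3a held 2. The GC content was 62.0% in the first stretch and 51.6% in the second.

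Rab27a was at 94.9, 131, 131 and 113 CPM in DKO, against 10.8, 20.7, 47.7 and 23.2 CPM in Control. The lowest DKO ovary was above the highest Control ovary, Control 3. The means were 117 ± 17.4 CPM in DKO and 25.6 ± 15.7 CPM in Control, 4.59-fold higher in DKO. The log2 fold change was 2.20 ± 0.39, and 2.02 ± 0.33 within the higher-numbered ovaries. Here the Control ovaries varied more relative to their mean, with a coefficient of variation of 14.8% in DKO and 61.3% in Control.

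Rab27b, the close relative of Rab27a that also docks granules (chromosome 18, 69979131 to 70141633, minus strand), was at 9.01, 8.00, 9.07 and 9.12 CPM in DKO, against 10.8, 7.77, 8.74 and 7.53 CPM in Control. All 4 DKO values fell inside the Control range, and the log2 fold change was 0.02 ± 0.16. In TPM, Rab27b was at 0.032 to 0.050 times the level of Rab27a in DKO and at 0.097 to 0.527 times in Control. This ratio contains the difference in Rab27a, for which that gene was chosen, and is no separate result. Both groups held more Rab27a than Rab27b in every ovary.

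Rab3a, a GTPase of synaptic vesicles, was close to undetected. It had 6, 3, 2 and 3 counts in DKO 1 to 4, against 1, 0, 2 and 0 in Control 1 to 4, and did not pass the filter. A count of 0 allows up to 3 counts, which covers counting error only. Scaled to library size without TMM factors, this is 0.0861 CPM in Control 2 and 0.0862 CPM in Control 4. The annotation places Rab3a on chromosome 8 (70754679 to 70758686, plus strand) and on a second sequence of the assembly. Of 1007 protein-coding genes placed on more than one sequence, 36.9% were at 0 in all libraries, against 14.5% of the 20559 placed on one. The part of the second placement in the low Rab3a counts was not tested. Its exons also overlap Mpv17l2 on the opposite strand by 38 bases, and the counting was stranded.

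Sytl4 encodes granuphilin, a Rab27 effector that docks granules (chromosome X, 133936385 to 133981822, minus strand). It was at 81.3, 60.5, 67.9 and 58.9 CPM in DKO, against 78.6, 85.8, 46.4 and 82.9 CPM in Control. The groups overlapped, with Control 3 lowest of the 8 and the log2 fold change at -0.13 ± 0.19. Snap23, the widely expressed relative of neuronal Snap25 (chromosome 2, 120567653 to 120601255, plus strand), was at 60.0, 62.7, 72.3 and 88.2 CPM in DKO, against 62.9, 71.5, 56.5 and 89.9 CPM in Control. Its log2 fold change was 0.01 ± 0.17, and the groups overlapped.

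Bsn encodes bassoon, a scaffold of the presynaptic active zone. It lies on chromosome 9 (108096022 to 108190419, minus strand, 13 exon blocks, gene ID 12217). Its promoter is shown beside that of Scg2 as the other end of the set's range of differences, and none of the 5 motifs searched was found in its window.
Bsn promoter, chr9:108190420-108190633, minus strand: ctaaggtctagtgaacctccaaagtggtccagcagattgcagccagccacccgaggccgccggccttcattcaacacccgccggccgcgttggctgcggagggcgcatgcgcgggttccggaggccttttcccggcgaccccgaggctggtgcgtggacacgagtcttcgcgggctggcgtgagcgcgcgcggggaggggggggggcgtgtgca
The stretch leaves 36 bases between its end and the start site and has a GC content of 70.6%, against 42.6% in the Scg2 stretch. The motifs were the full and short CRE, the FOXO motif GTAAACA (3.65% of promoters), the NR5A motif AAGGTCA (4.72%) and the AP-1 motif TGANTCA (7.81%), each on both strands; every full CRE also holds the short CRE. No FOXO, NR5A or AP-1 match was found in the 10 promoters of the 8 matched genes, which says only that these letters are not in these windows.

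Bsn was at 12.9, 12.1, 6.25 and 5.31 CPM in DKO, against 2.39, 1.38, 1.70 and 1.52 CPM in Control. All DKO ovaries were above all Control ovaries, and within DKO DKO 1 and DKO 2 were above DKO 3 and DKO 4. In counts these were 510, 410, 237 and 185 in DKO and 89, 49, 62 and 50 in Control. The means were 9.14 ± 3.92 CPM in DKO and 1.75 ± 0.444 CPM in Control, 5.22-fold higher in DKO. The log2 fold change was 2.38 ± 0.34, and 1.93 ± 0.25 within the higher-numbered ovaries. Bsn exons overlap in part an unnamed gene on the opposite strand.

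Markers of neurons and chromaffin cells, which use Bsn and Scg2, were summed for each ovary. Their summed CPM was 33.2 to 38.0 in DKO and 23.0 to 28.1 in Control, without overlap, over 10 markers. Of these, 7 were tested and 0 passed; Nefl and Dbh were under 1 CPM in each library. The higher sum came from Tubb3, at 21.3 ± 3.83 CPM in DKO and 15.3 ± 3.44 CPM in Control, and Prph, at 6.56 ± 3.40 CPM in DKO and 2.78 ± 2.85 CPM in Control. Nefl, Nefm, Elavl3, Elavl4 and Th had lower means in DKO than in Control, and no single marker was free of overlap between the groups. The part of such cells in the Bsn and Scg2 values was not tested. Summed granulosa and luteal markers were at 11927 to 15412 CPM in DKO and 7191 to 12420 CPM in Control, with 0 of 10 passing the test. Most of the sum was Cyp11a1, the first enzyme of steroid synthesis, at 7424 to 8486 CPM in DKO and 3751 to 6467 CPM in Control (adjusted p = 0.0704). Lhcgr, the receptor for hCG, was at 573 to 864 CPM in DKO and 179 to 509 CPM in Control (adjusted p = 0.0893). With the block for title numbers both passed (adjusted p = 0.0378 for Cyp11a1 and 0.0374 for Lhcgr), and within the higher-numbered ovaries neither did (0.229 and 0.123). Foxl2 was also higher in DKO without overlap (log2 fold change 0.58, adjusted p = 0.0716), as were 5.7% of all genes tested. Inha, Nr5a1 and Cyp19a1 were at 0.15, 0.29 and 0.42, with overlap. Fshr, Inhba, Nr5a2 and Star were at -0.06, -0.11, -3.5e-04 and -0.01, with overlap, so not every marker of the list was higher. The part of these cells in the members' values was not tested.

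Pclo encodes piccolo, the partner scaffold of bassoon (chromosome 5, 14514916 to 14863465, plus strand). It was at 6.14, 7.44, 8.64 and 8.60 CPM in DKO, against 9.09, 8.39, 3.68 and 10.7 CPM in Control. The DKO values lay inside the Control range, and the log2 fold change was -0.05 ± 0.29. In TPM, Bsn was at 0.800 to 2.73 times the level of Pclo in DKO and at 0.185 to 0.600 times in Control. This ratio was higher in every DKO ovary than in any Control ovary. It contains the difference in Bsn, for which that gene was chosen, and is no separate result.

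Per length, Rab27a and Snap23 had the highest levels in DKO, at 78.2 ± 12.96 and 61.9 ± 10.7 TPM, and their ovaries overlapped. Below them in DKO came Sytl4 (35.2 ± 5.01 TPM), Scg5 (8.49 ± 0.964 TPM) and Rab27b (3.09 ± 0.155 TPM), each above all values of the next. Bsn (1.42 ± 0.606 TPM), Scg2 (1.04 ± 0.696 TPM) and Pclo (0.921 ± 0.147 TPM) overlapped in DKO, above Rab3a. In Control, Snap23 (63.7 ± 14.1 TPM), Sytl4 (40.4 ± 12.2 TPM), Rab27a (16.9 ± 8.77 TPM) and Scg5 (10.6 ± 3.68 TPM) overlapped from each gene to the next among these 4, and Scg5 was above all values of Scg2. Scg2 (5.76 ± 0.876 TPM) and Rab27b (3.18 ± 0.760 TPM) followed in Control, each above all values of the next. Pclo (1.00 ± 0.410 TPM) and Bsn (0.283 ± 0.092 TPM) overlapped in Control, above Rab3a.

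**Figure D2:**
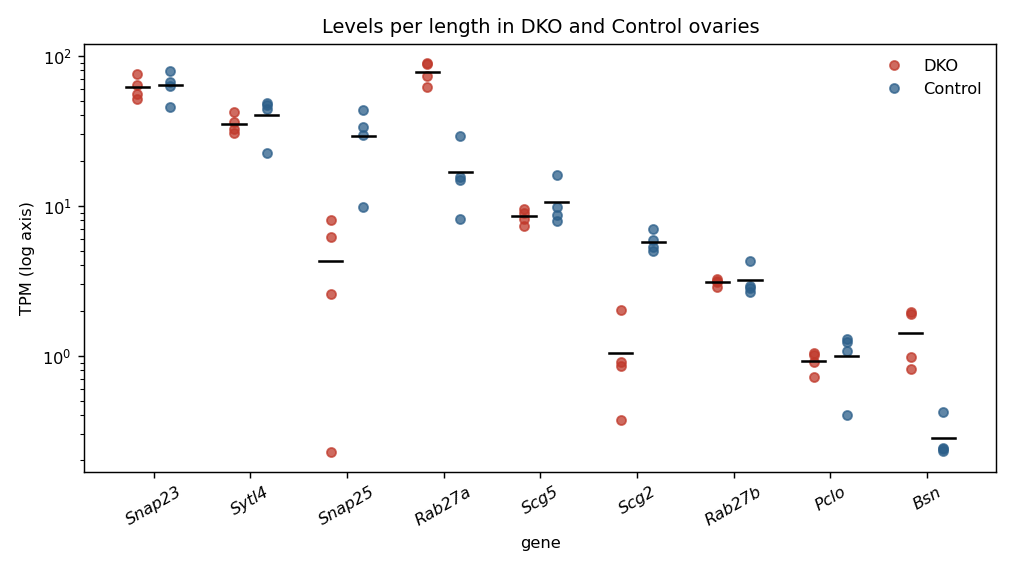
TPM per ovary on a log axis, DKO left of Control for each gene, with bars at the group means of 4 ovaries. Genes are ordered by their Control mean, so Snap25, outside the set, stands between Sytl4 and Rab27a. Rab3a is left out for its zeros. Rab27a is at 61.9 to 88.9 TPM in DKO and 8.18 to 29.1 TPM in Control.

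Outside the set, 97 further genes of secretion and the synapse were listed by role, and 85 of them passed the filter. Stx3 was lower in DKO and no other gene passed the test, so 0 were higher and 1 was lower; this is 1.18% of those tested, against 1.26% of all genes. Of the 85, 37 were above and 48 below a log2 fold change of 0, with a median of -0.05, against -0.02 over all genes. The groups did not overlap for 8 of them, a share near the 9.22% of all genes tested, DKO above for Snap47, Cplx1 and Ppfia3 and below for Unc13b, Cadps2, Stxbp3, Snap25 and Stx3.

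Stx3, a plasma membrane SNARE, was at 9.69, 11.3, 11.1 and 11.0 CPM in DKO, against 15.7, 20.9, 20.5 and 18.3 CPM in Control. No DKO ovary reached the lowest Control ovary. The log2 fold change was -0.80 ± 0.13, with an adjusted p of 0.0288. It did not pass within the higher-numbered ovaries (-0.83, adjusted p = 0.0743), nor without any 1 of the DKO libraries, Control 2 or Control 4 (adjusted p = 0.0519 to 0.132), nor without Control 1 and DKO 2 together (adjusted p = 0.0507). Snap25, the neuronal relative of Snap23 and known in mouse granulosa cells as an ovulation-induced gene, was at 0.228, 2.50, 6.09 and 8.03 CPM in DKO, against 8.55, 30.7, 47.1 and 28.9 CPM in Control. The groups did not overlap, but Control 1 was only just above DKO 4, and the adjusted p was 0.176 at a log2 fold change of -2.78 ± 0.87. Within the higher-numbered ovaries it passed (log2 fold change -2.32, adjusted p = 0.0183), and it passed with a block for the title numbers (adjusted p = 0.0327). It did not pass without any 1 library (adjusted p = 0.127 to 0.377). In TPM, Snap25 was at 0.004 to 0.105 times the level of Snap23 in DKO and at 0.157 to 0.962 times in Control.

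Among factors that prime granules, 9 were tested and 0 passed. Unc13b was at 49.9, 47.2, 57.0 and 45.6 CPM in DKO, against 90.1, 95.7, 60.5 and 74.2 CPM in Control, with a log2 fold change of -0.68 ± 0.15 and an adjusted p of 0.0609. The block for title numbers brought its adjusted p to 0.0459, and leaving out Control 3 brought it to 0.0164. It did not pass within the higher-numbered ovaries (log2 fold change -0.56, adjusted p = 0.320) or without any other 1 library (adjusted p = 0.0933 to 0.206), and over all alternatives its adjusted p ran from 0.00347 with DESeq2 to 0.320. Of the 10 Rab3 and Rab27 effectors tested, 0 passed. Unc13d, which binds Rab27 and primes lytic granules, was at 26.3, 59.6, 84.4 and 56.8 CPM in DKO, against 7.56, 15.5, 27.4 and 7.59 CPM in Control. DKO 1 lay just below Control 3, and the log2 fold change was 1.97 ± 0.49 with an adjusted p of 0.107, and of 0.0317 with that block. Without Control 3 its adjusted p was 0.0415. It did not pass within the higher-numbered ovaries (log2 fold change 2.08, adjusted p = 0.0867) or without any other 1 library (adjusted p = 0.115 to 0.299), and over all alternatives its adjusted p ran from 2.7e-04 with DESeq2 to 0.299.

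**Figure D3:**
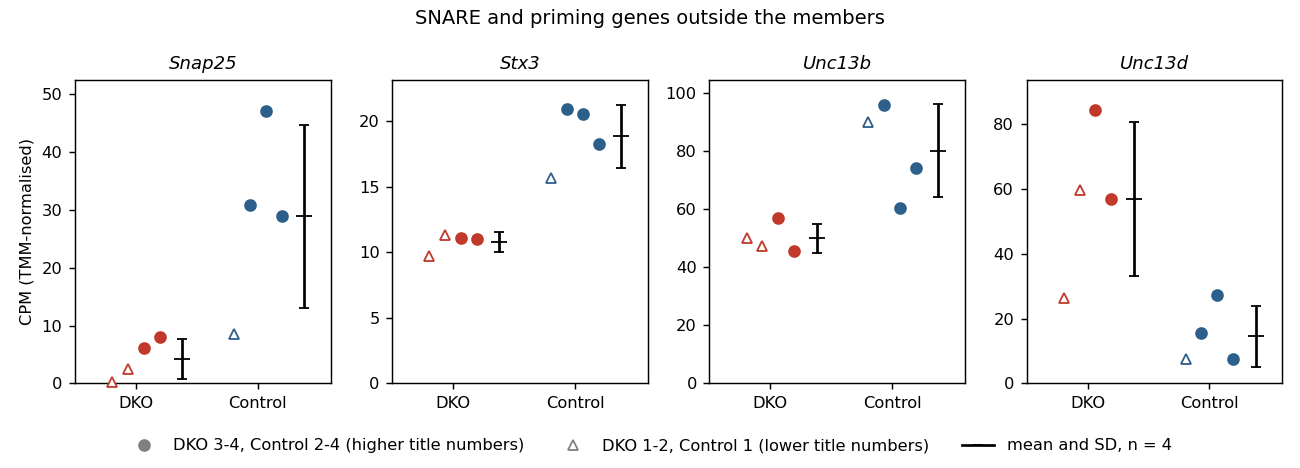
CPM of 4 genes outside the set in each ovary, DKO left of Control, with the higher-numbered ovaries filled and DKO 1, DKO 2 and Control 1 open, and bars for the mean and SD of 4 ovaries. Stx3, Snap25 and Unc13b have no overlap between the groups; in Unc13d the lowest DKO value, 26.3 CPM, is under the highest Control value, 27.4 CPM.

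In the other role groups 0 genes passed the test over all 8 ovaries, and each is given by its gene of smallest adjusted p. Of 5 granins and cargo genes, 1 was above and 4 below 0, with a median of -0.48; Chgb, chromogranin B, averaged 2.44 ± 1.47 CPM in DKO and 4.12 ± 1.75 CPM in Control (adjusted p = 0.494). Of 4 prohormone processing genes, 2 were above and 2 below 0, and the amidating enzyme Pam ran from 179.6 to 304 CPM in DKO and from 156 to 184 CPM in Control (adjusted p = 0.156). Of 4 tested relatives of Rab3 and Rab27, 3 were above 0, and Rab3b averaged 0.993 ± 0.601 CPM in DKO and 2.04 ± 0.937 CPM in Control (adjusted p = 0.392). Among 10 regulators of these GTPases, with 4 above and 6 below 0, the Rab3 exchange factor Madd averaged 50.9 ± 13.6 CPM in DKO and 36.2 ± 3.94 CPM in Control (adjusted p = 0.224). Within the higher-numbered ovaries Madd passed, with a log2 fold change of 0.84 and an adjusted p of 0.0494. Among 9 tested calcium sensors and complexins, 3 above and 6 below 0, Cplx1 averaged 3.35 ± 0.868 CPM in DKO and 2.04 ± 0.348 CPM in Control (adjusted p = 0.231). Among 11 tested active-zone genes other than Bsn and Pclo, 6 above and 5 below 0, the liprin gene Ppfia3 averaged 6.38 ± 1.02 CPM in DKO and 4.17 ± 0.552 CPM in Control (adjusted p = 0.172). Among 9 tested synaptic vesicle genes, 5 above and 4 below 0, synaptophysin (Syp) averaged 2.43 ± 0.578 CPM in DKO and 1.81 ± 0.113 CPM in Control (adjusted p = 0.476). Vamp3 and Vamp8, both placed on a second sequence, were at 0 in all libraries and not tested.

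**Figure D4:**
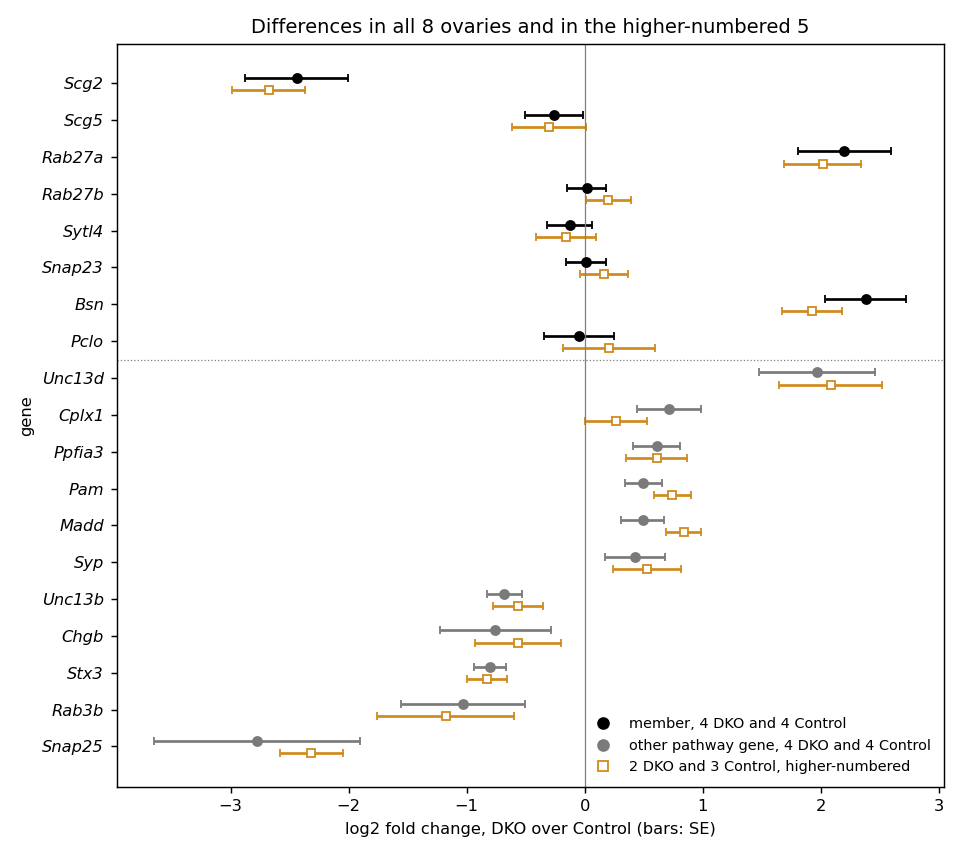
Log2 fold change of DKO over Control with its SE for 8 genes of the set (black) and the named genes outside it (grey), over 8 ovaries, and in orange squares within the higher-numbered ovaries (2 DKO, 3 Control). Scg2, Rab27a and Bsn, chosen for their difference in these ovaries, are at -2.68, 2.02 and 1.93 within the higher-numbered ovaries.

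Gene profiles nearest to the 3 differing genes were sought over the 8 ovaries, on log2 CPM centred on each gene's mean; the shared difference between groups is part of this likeness. The nearest to Bsn was Gsg1l, an auxiliary protein of glutamate receptors, with a root mean square difference of 0.31, then 4930480K23Rik (0.34) and the adrenergic receptor gene Adra1d (0.38). For Rab27a they were the cadherin gene Cdh15 (0.19) and the sialyltransferase gene St8sia5 (0.29). For Scg2 they were Rasef (0.45), Ldhd (0.51) and the interleukin 33 receptor gene Il1rl1 (0.53). Cdh15 was at 6.70, 10.4, 11.4 and 7.74 CPM in DKO, against 0.643 to 3.57 CPM in Control. In both Cdh15 and Rab27a, Control 3 was the highest and Control 1 the lowest of the Control ovaries. This order is part of the likeness by which Cdh15 was found, and is no separate result.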

How the data were processed

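RNA from 8 whole ovaries was sequenced with a stranded messenger RNA kit, per the labels' protocols. The authors deposited raw counts per gene, 1 table per library, by featureCounts (Subread 1.5.2) on GRCm38.p5 RefSeq exons with the reverse-strand setting, per the file headers. The submitters' processing notes also name STAR 2.4.2a, Trimmomatic and bcl2fastq. Groups came from the sample descriptions; the series' design text gives 4 mice per group. Symbols came from RefSeq and matched 40290 of 41591 IDs (96.9%). Replicates all differed by more than sampling noise (reduced chi-square 22.9 to 129), so each library counted once.

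From the counts, edgeR 4.0.16 in R 4.3.3 gave TMM factors (0.943 to 1.06), CPM, and a two-sided quasi-likelihood F-test with Benjamini-Hochberg adjustment over the 16870 genes kept by filterByExpr. The SE is the log2 fold change divided by the square root of F. TPM used merged exon lengths on the chromosomes. Alternatives used limma 3.58.1 and DESeq2 1.42.0. The script was tested on simulated data.

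The members, the lists of 97 pathway genes and of markers, and the alternatives that use title numbers were chosen with earlier results of these data known. Named genes were the members, pathway genes that passed, the smallest adjusted p of each role group, Snap25, the targeted genes with Pgr, and the 3 nearest profiles of Bsn, Rab27a and Scg2; some genes that fall under these rules and lists are not reported here. Other marker lists gave the following. Of 8 mast cell markers, 5 were tested and 2 passed, Cpa3 and Tpsb2, both lower in DKO, with sums of 119 to 131 CPM in DKO and 126 to 229 CPM in Control. Most of the sum was Hdc, at 98.9 to 115 CPM in DKO and 102 to 209.6 CPM in Control. Cpa3 averaged 0.308 CPM in DKO and 0.983 CPM in Control, and Tpsb2 0.426 CPM in DKO and 1.49 CPM in Control. Cma1 was also lower in DKO without overlap (adjusted p = 0.0631), as were 3.52% of all genes tested. Mcpt4 was not tested over all 8 ovaries. Its highest DKO value, 0.211 CPM, was only just under its lowest Control value, 0.214 CPM. The calls of Cpa3 and Tpsb2 did not hold within the higher-numbered ovaries (adjusted p = 0.132 for Cpa3 and 0.0802 for Tpsb2). With the block for title numbers both passed (adjusted p = 0.0350 for Cpa3 and 0.0374 for Tpsb2). Kit did not go with them, at 16.2 ± 2.04 CPM in DKO and 15.9 ± 2.82 CPM in Control. Mcpt4, Ms4a2 and Fcer1a were under 1 CPM in all libraries. Of 9 neutrophil markers, 4 were tested and 0 passed (4.19 to 6.90 CPM in DKO, 5.25 to 24.98 CPM in Control). Of 8 macrophage markers, 0 passed (161 to 218 CPM in DKO, 189 to 251 CPM in Control). S100a9 of the neutrophil list and Cd14 of the macrophage list were lower in DKO without overlap (adjusted p = 0.140 and 0.102). This held for 3.52% of all genes tested, and the other tested markers of both lists had overlap.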

Additional observations from a re-analysis of the deposited data

Results flagged for a closer look

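In 46 groups of 4 ovaries tested for a lone high or low sample, 4 had one, and chance gives about 1 in 20. Scg5 was at 6.89 CPM in Control 2, the highest of Control. Rab27b was at 8.00 CPM in DKO 2, the lowest of DKO. Insr was at 139.9 CPM in Control 3, the lowest of Control, and Igf1r at 247 CPM in DKO 4, the highest of DKO.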

How the results depend on the processing

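Of 18 alternatives, 17 were planned, and leaving out Control 1 and DKO 2 together was added after seeing the data. Bsn, Rab27a and Scg2 kept their direction in all 18, with log2 fold changes of 1.93 to 2.58 for Bsn, 1.90 to 2.69 for Rab27a and -2.99 to -2.16 for Scg2. They were chosen for this difference in the same libraries and their groups do not overlap, so the kept direction is no separate result. Calls over all genes, 212, became 1073 with DESeq2, 743 with the replicate block, 526 with the title-number block, 97 without Control 1 and DKO 2, and 2 to 506 when 1 library was left out, 2 without Control 2, 9 without DKO 3, 27 without Control 4 and 506 without Control 3. Members called, 3, became 0 to 3 when 1 library was left out: 0 without DKO 3, Control 2 or Control 4, 1 without DKO 1 or DKO 4, and 2 without DKO 2; with no filter it was 2, without Rab27a. Pathway genes called, 1, became 2 with no filter, 7 with DESeq2, 5 with the replicate block, 4 with the title-number block, 2 within the higher-numbered ovaries, 0 without Control 1 and DKO 2, and 0 to 3 when 1 library was left out. The cause was not tested; fits without a library hold fewer samples. Deviations of same-numbered DKO and Control libraries from their group means correlated at 0.156, -0.359, 0.312 and 0.468. For DKO 1, DKO 3 and DKO 4 the same-numbered Control library gave the highest correlation. For DKO 2 it gave the lowest, and Control 1 the highest (0.638). Whether the replicate number stands for a pairing of the ovaries was not tested. At 0 to 6 counts, Rab3a did not pass the filter, and with no filter it was not among the members called. These counts are too low to judge a difference.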

Other observations

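Some genes of secretion were high in DKO 2 and Control 1 and low elsewhere; they were chosen after their values were seen. Syt10, a calcium sensor, was at 2.73 CPM in DKO 2 and 5.15 CPM in Control 1, and at most 0.335 CPM in the other 6 ovaries. Sv2b, a synaptic vesicle protein, was at 2.21 CPM in DKO 2 and 7.24 CPM in Control 1, and at most 0.732 CPM in the others. Rab37, a GTPase of secretory granules, was at 2.00 CPM in DKO 2 and 1.98 CPM in Control 1, and at most 0.553 CPM in the others. The deviations of these 2 libraries from their group means correlated at 0.638 across genes. In the same libraries, Scg2 was highest of its group in DKO 2 (1.85 CPM) and not in Control 1 (4.83 CPM), and Bsn was highest of its group in Control 1 (2.39 CPM) and second to DKO 1 in DKO 2 (12.1 CPM). Without both libraries the log2 fold changes were 2.42 for Bsn, 1.90 for Rab27a and -2.99 for Scg2.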
